A study of Homo sapiens with 4 samples.

Results

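The expression of 8 genes of the complement system was examined in A2780s cells, a human ovarian adenocarcinoma line, after stable knockdown of GALNT3, the enzyme that starts mucin-type O-glycosylation. The 8, of 17240 genes named on the array, were CFHR3, CFI, CFB, C3, C1S, CD46, CD55 and CD59. They are represented by 15 of the 41000 probes of the array, namely 4 probes for CD59, 3 for CD46, 2 each for CFI and CD55, and 1 each for CFHR3, CFB, C3 and C1S. Probes were assigned through the accession that the array gives them and were kept apart. The genes were selected on their log2 ratios of knockdown over ctrl on these same arrays, which were already known, so these ratios and the differences between the clones made from them are given as a description with no test.

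The study compared 3 clones. Clones sh-G1 and sh-G2 each carry 1 and the same shRNA against GALNT3, cloned in pSilencer 4.1 puro, and the ctrl clone was mock-transfected with this empty plasmid and carries no GALNT3 shRNA. All 3 were selected with puromycin. Each group is 1 clone, so a difference between clones and an effect of the knockdown cannot be told apart. A ratio common to sh-G1 and sh-G2 does not separate them either, since both share the shRNA and the 1 ctrl clone. Every array held a knockdown clone against the ctrl clone in 2 colours, with the knockdown clone in Cy5 on replicate 1 and in Cy3 on replicate 2. Values are log2 ratios of knockdown over ctrl, so that 1 is a doubling, or log2 intensities of 1 channel, and a mean of the clones has n = 2 after the dye-swapped arrays of each clone were averaged. Whether dye-swapped arrays shared an RNA extract was not given in the sources used here, and the labels write the ctrl line in 2 ways, A27803 and A2780s.

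The complement system is a cascade of plasma and cell-surface proteins that tags and lyses targets. Recognition proteins and proteases such as C1s start the classical and lectin routes, C3 is the component on which all routes meet, and factor B joins it to form the protease that amplifies the alternative route. Host cells limit this through soluble inhibitors such as factor I and through membrane inhibitors, of which CD46, CD55 and CD59 are found on most human cells and are known to be carried by many carcinomas. CFHR3 encodes a secreted protein built of short consensus repeats, made mainly by the liver, that binds C3 fragments.

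RefSeq start-site windows of the assembly GRCh38.p14 were found for 5 of the 8 genes, 9 windows in all, and CFHR3, C3 and C1S had none in the table used. The 250 bases before the start are shown for CFB, the alternative-route gene whose window held the most kinds of the motifs searched, and for CD46 and CD55, the membrane regulators whose ratios are described in most detail. Capitals mark motif matches.

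CFB, chr6:31945845-31946094, plus strand: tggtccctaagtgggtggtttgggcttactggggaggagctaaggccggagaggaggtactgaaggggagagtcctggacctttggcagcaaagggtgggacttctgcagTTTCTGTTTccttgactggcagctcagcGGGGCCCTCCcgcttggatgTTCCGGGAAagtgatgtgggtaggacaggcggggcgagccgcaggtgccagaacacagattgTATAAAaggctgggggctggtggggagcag

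CD46, chr1:207751788-207752037, plus strand: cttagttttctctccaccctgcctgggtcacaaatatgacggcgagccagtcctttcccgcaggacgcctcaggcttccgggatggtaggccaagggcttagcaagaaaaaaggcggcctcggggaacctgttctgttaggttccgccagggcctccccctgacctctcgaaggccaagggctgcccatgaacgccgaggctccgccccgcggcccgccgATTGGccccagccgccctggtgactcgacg

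CD55, chr1:207321428-207321677, plus strand: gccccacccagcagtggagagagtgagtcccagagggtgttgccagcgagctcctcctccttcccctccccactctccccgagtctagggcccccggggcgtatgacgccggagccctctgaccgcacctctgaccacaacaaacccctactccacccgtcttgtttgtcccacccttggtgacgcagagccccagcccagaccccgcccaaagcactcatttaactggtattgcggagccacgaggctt

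The motifs were AP-1 (TGANTCA), GAS (TTCNNNGAA), IRF core (AAANNGAAA), NF-kB, TATAAA and CCAAT, searched on both strands and allowed to overlap. The CFB window held an IRF core match 140 bases, an NF-kB match 112 bases, a GAS match 92 bases and a TATA box 30 bases before the start. The CD46 window held a CCAAT box on the minus strand 30 bases before the start, and the CD55 window held no match to these 6 motifs. Over all 35116 windows of the table, 9.2% held an IRF core match, 9.96% an NF-kB match, 6.57% a GAS match, 6.57% an AP-1 match, 10.7% a TATA box and 32.0% a CCAAT box. These matches describe the letters of the windows and say nothing of binding in A2780s cells.

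The targeted gene was checked first. The 1 GALNT3 probe (A_24_P114249) had log2 ratios of -0.09 and 0.08 in sh-G1 and 0.12 and -0.14 in sh-G2, with no shift common to the arrays. Its ctrl signal lay only 0.29 above the lowest detected, so that no larger decrease could be read and the probe does not check the labels. The paper reports lower GALNT3 in both clones than in the ctrl clone, from semi-quantitative RT-PCR and Western blot. The arrays had a median spot intensity of 451.5 to 802.5 in Cy3 and 463 to 558 in Cy5 over a background of 38 to 41. In the knockdown channel 95.4% to 97.0% of probes were well above background on 3 arrays and 88.1% on sh-G2 replicate 2, which also had a higher detection limit there (lowest signal well above background), at 6.77 in log2 intensity against 6.11 to 6.26.

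Of the 15 probes, 13 passed the filter on dim probes, for which 1 channel or both had to stand well above background on each array. The probes A_24_P92472 of CFI and A_24_P282597 of CD46 were not well above background in any channel of any array, so for these only the other probes of the gene were read. Among the 13, 1 probe was 1.5-fold or more higher in the knockdown clones on all 4 arrays, and 0 were lower by as much. Of the 39152 probes kept, 0.23% were higher by this margin on all 4 arrays and 0.919% were lower. The rule by which the genes were chosen used this contrast, so nothing is read from the member count beside these shares. The median log2 ratio of the 13 probes, averaged over the clones, was -0.03, against -0.00 for all probes kept.

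CFHR3 (A_23_P103256) was the probe that passed. Its log2 intensity in the channel of the knockdown clone was 13.63 and 13.55 for sh-G1, replicates 1 and 2, and 13.53 and 13.33 for sh-G2. In the ctrl channel of the same arrays it was 11.41, 11.50, 11.44 and 11.61. All 4 knockdown values lay above all 4 ctrl values, as held for 2.46% of all probes kept. The log2 ratios were 2.21 and 2.05 in sh-G1 and 2.09 and 1.72 in sh-G2, with clone means of 2.13 and 1.90. The mean over the clones was 2.02 ± 0.16 (SD, n = 2 clones), or 4.05-fold higher. This SD holds no spread of the ctrl clone, which both clones share. CFHR3 was well above background in both channels on every array, and its ctrl signal exceeded the lowest signal detected there by 5.40 in log2 units. It belongs to a family of close paralogues, and whether the probe also takes up transcripts of related genes was not tested.

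**Figure D1:**
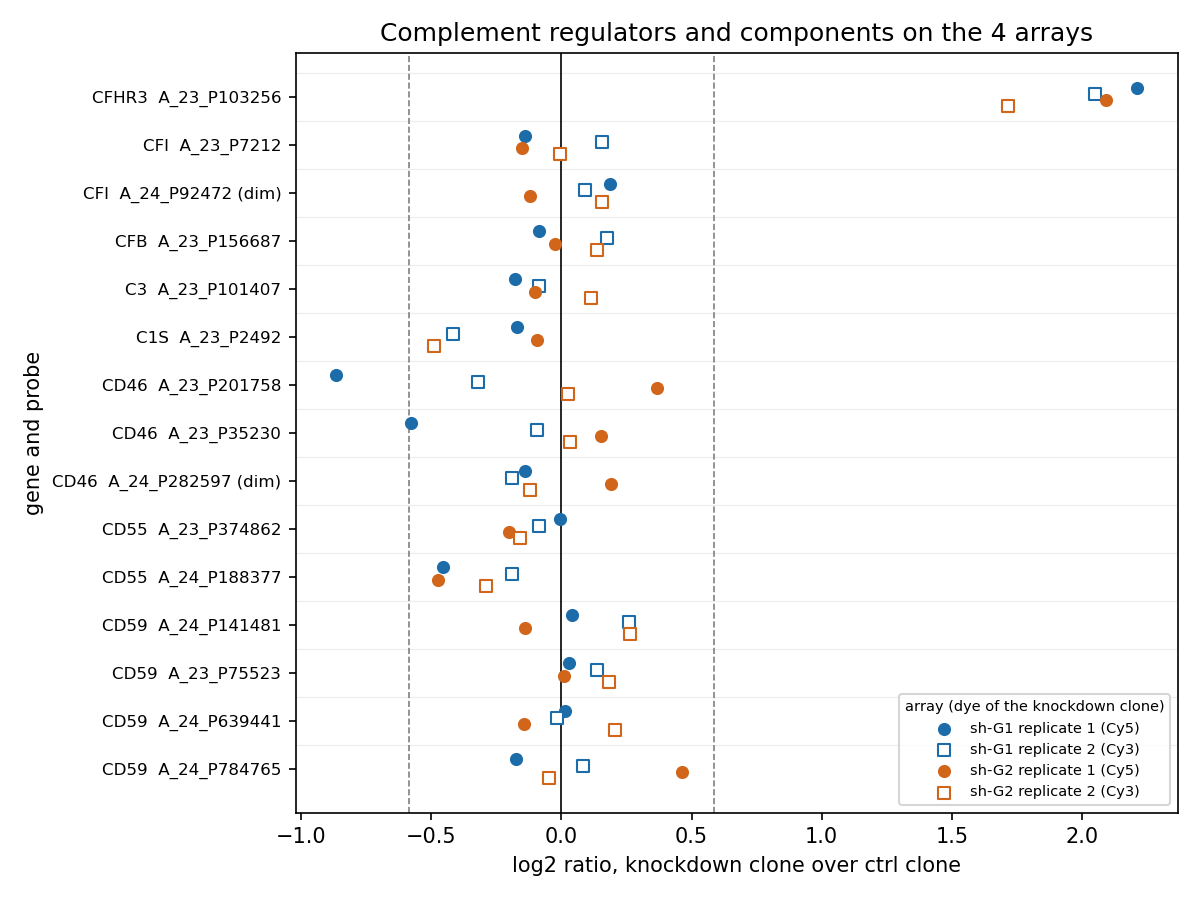
Log2 ratio of knockdown over ctrl (x axis) for each of the 15 probes of the 8 genes (y axis), with 1 symbol per array, filled where the knockdown clone carried Cy5 and open where it carried Cy3. Dashed lines mark 1.5-fold in either direction, and "dim" marks the 2 probes not well above background. CFHR3 lies between 1.72 and 2.21 on all 4 arrays, and every other probe has at least 1 array inside the dashed lines.

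The clone means of CFHR3 differed by 0.23, more than the 0.16 between the dye-swapped arrays of sh-G1 and less than the 0.37 between those of sh-G2. Outside the complement genes, the 5 genes with the most similar ratios over the 4 arrays, by Euclidean distance of the log2 ratios among 16827 genes, were PCDH17 (distance 0.57), ARRDC3 (0.71), HOTAIR (0.73), ADGRV1 (0.77) and RGS2 (0.89). PCDH17 encodes a protocadherin, ARRDC3 an alpha-arrestin, HOTAIR a long non-coding RNA of the HOXC cluster, ADGRV1 an adhesion G-protein-coupled receptor and RGS2 a regulator of G-protein signalling. The log2 ratios of PCDH17 were 1.74 and 2.02 in sh-G1 and 1.77 and 1.78 in sh-G2. Those of HOTAIR were higher on the replicate 1 arrays, at 1.89 and 1.94, than on the replicate 2 arrays, at 1.48 and 1.46.

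Factor I, the serine protease that cleaves C3b and C4b when a cofactor holds them, was read from the CFI probe A_23_P7212. Its log2 intensity was 6.66 and 6.90 on the sh-G1 arrays, 6.73 and 6.85 on the sh-G2 arrays, and 6.79, 6.74, 6.88 and 6.86 in ctrl, so that the groups overlapped. The log2 ratios were -0.14 and 0.16 in sh-G1 and -0.15 and -0.01 in sh-G2, with a mean over the clones of -0.03. The ctrl signal lay 0.73 above the lowest signal detected, so that no larger decrease could be measured. In the knockdown channel the probe was well above background on both sh-G1 arrays but on only 1 sh-G2 array. It was kept on the other through ctrl alone, and it dropped out when both channels had to be above background.

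Factor B, the zymogen of the alternative-route convertase, showed ratios on both sides of 0. Its CFB probe A_23_P156687 gave log2 ratios of -0.09 and 0.17 in sh-G1 and -0.02 and 0.14 in sh-G2, with a mean of 0.05. In both clones the array with the knockdown clone in Cy3 had the higher ratio. The ctrl signal, between 6.81 and 7.31, lay 0.91 above the lowest signal detected.

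C3 itself, the central component whose cleavage tags a surface, was measured by A_23_P101407. The log2 ratios were -0.18 and -0.09 in sh-G1 and -0.10 and 0.11 in sh-G2, with a mean of -0.06. Knockdown intensities of 7.40 to 7.75 lay within the ctrl range of 7.48 to 7.93 except for the lowest of them. The signal in ctrl lay 1.56 above the lowest detected, which limits what decrease could be seen. The mean of CFI changed sign with median centring, at 0.07, and also under settings that lacked an array. Those of CFB and C3 changed sign only under settings that lacked an array.

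C1S encodes a protease of the C1 complex, which starts the classical route by cleaving C4 and C2. On the probe A_23_P2492 the log2 intensity was 12.29 and 12.02 on the sh-G1 arrays, 12.51 and 11.99 on the sh-G2 arrays, and 12.46, 12.44, 12.61 and 12.49 in ctrl. The ratio was below 0 on all 4 arrays, at -0.17 and -0.42 in sh-G1 and -0.09 and -0.49 in sh-G2. Both clone means were -0.29, or 1.23-fold lower, and their mean ran from -0.45 with the series matrix to -0.19 without sh-G2 replicate 2. Of all probes kept, 9.04% were below 0 on all 4 arrays and 6.21% above. The knockdown and ctrl intensities overlapped through the Cy5 array of sh-G2, and in both clones the array with the knockdown clone in Cy3 was further below 0, by 0.25 and 0.40.

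**Figure D2:**
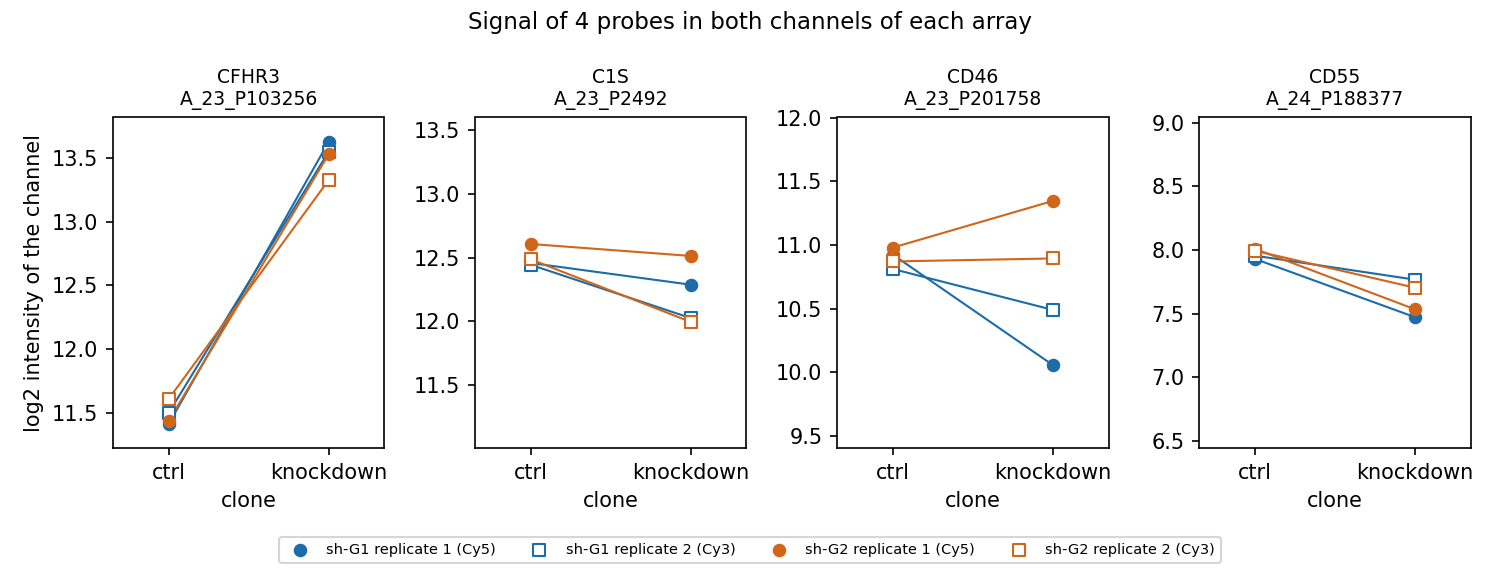
Log2 intensity of 1 channel (y axis, each panel on its own range of the same height) for the ctrl and the knockdown clone of each array (x axis), joined by a line per array, for 4 probes. The CFHR3 lines rise on all 4 arrays, those of C1S and CD55 fall on all 4, and those of CD46 fall on both sh-G1 arrays and rise on both sh-G2 arrays.

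CD46, the membrane cofactor protein that helps factor I cleave C3b on host cells, had ratios of opposite sign in the clones on both probes that were kept, as did 4.59% of all probes kept on all their arrays. For A_23_P201758 the log2 intensity was 10.06 and 10.49 in sh-G1 and 11.35 and 10.89 in sh-G2, against 10.92, 10.81, 10.98 and 10.87 in ctrl. The sh-G1 values lay below every ctrl value, while of the sh-G2 values 1 lay above all of them and 1 among them. The log2 ratios were -0.87 and -0.32 in sh-G1 and 0.37 and 0.02 in sh-G2.

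The second CD46 probe, A_23_P35230, gave log2 ratios of -0.58 and -0.09 in sh-G1 and 0.15 and 0.03 in sh-G2. Its intensities were 9.22 and 9.61 on the sh-G1 arrays, 9.99 and 9.82 on the sh-G2 arrays, and 9.70 to 9.84 in ctrl, the same order as on the other probe. Both probes read the same RNA samples and are not independent of each other. The clone means were -0.59 and 0.19 for A_23_P201758 and -0.34 and 0.09 for A_23_P35230.

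The difference of sh-G1 minus sh-G2 was thus -0.79 on A_23_P201758 and -0.43 on A_23_P35230. Beside it, the dye-swapped arrays of sh-G1 differed by 0.55 and 0.48 on these probes, and those of sh-G2 by 0.34 and 0.12. On the other probes of the 8 genes the clone means differed by 0.25 at most, on CD59 A_24_P784765.

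CD55, or decay-accelerating factor, takes apart the convertases of C3 and C5 on the cell surface. Its probe A_24_P188377 had log2 intensities of 7.47 and 7.77 in sh-G1 and 7.54 and 7.70 in sh-G2, and of 7.93, 7.96, 8.01 and 7.99 in ctrl. All 4 knockdown values lay below all 4 ctrl values, as held for 4.35% of all probes kept, and the ratios were -0.46, -0.19, -0.47 and -0.29 in the same order. The clone means were -0.32 and -0.38 and their mean was -0.35, or 1.28-fold lower, with 0 arrays past 1.5-fold. With the 3 usable arrays of the series matrix it was -0.53.

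The other CD55 probe, A_23_P374862, was also below 0 on all 4 arrays but closer to it, at -0.00 and -0.08 in sh-G1 and -0.20 and -0.16 in sh-G2. The mean was -0.11, and its knockdown intensities, 8.92 to 9.46, overlapped the ctrl range of 9.12 to 9.47. Its mean turned to 0.05 with the series matrix, which lacks sh-G1 replicate 2, so the sign shared by the CD55 probes did not hold there. With the software's log ratio on all 4 arrays the mean of this probe was -0.08. Which transcripts of CD55 each probe reads was not analysed here.

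CD59 blocks the last step of the cascade, the assembly of the membrane attack complex. Its 4 probes had mean log2 ratios of 0.11, 0.09, 0.01 and 0.08, and single arrays ranged from -0.17 to 0.46. The probe A_23_P75523 was above 0 on all 4 arrays, at 0.03 and 0.14 in sh-G1 and 0.01 and 0.18 in sh-G2. On A_24_P141481, whose ctrl signal lay 6.87 above the lowest detected, the ratios were 0.04 and 0.26 in sh-G1 and -0.14 and 0.26 in sh-G2, so the arrays of sh-G2 went opposite ways. Its knockdown intensities, 12.94 to 13.16, overlapped the ctrl range of 12.84 to 13.08. The mean of this probe fell to 0.01 without sh-G2 replicate 2 and was 0.21 without sh-G2 replicate 1.

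The remaining CD59 probes differed more between arrays than from 0. On A_24_P639441 the log2 ratios were 0.01 and -0.02 in sh-G1 and -0.14 and 0.21 in sh-G2. On A_24_P784765 they were -0.17 and 0.08 in sh-G1 and 0.46 and -0.05 in sh-G2, so that 1 array of sh-G2 carried the clone mean of 0.21. The mean of A_24_P639441 changed sign with median centring and without sh-G2 replicate 2. That of A_24_P784765 changed sign only under settings that lacked an array, and that of A_23_P75523 lay between 0.05 and 0.17. No CD59 probe reached 1.5-fold on any array.

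**Figure D3:**
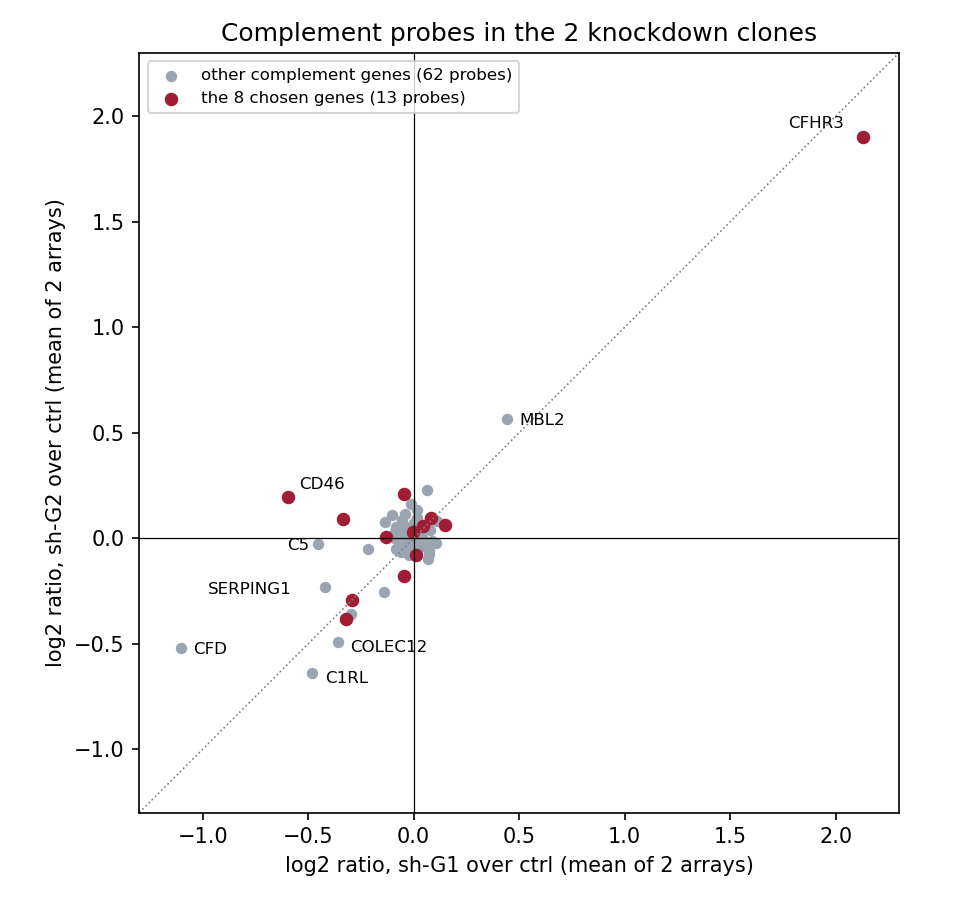
Mean log2 ratio of knockdown over ctrl in sh-G1 (x axis) and sh-G2 (y axis) for the 13 probes of the 8 genes and for 62 probes of other complement genes, each point being the mean of 2 dye-swapped arrays, with genes beyond 0.4 in either clone named. The dotted line is equality; both clones share the ctrl clone. CFHR3 lies at 2.13 and 1.90, the CD46 probes lie above the line, and most other points lie near 0.

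A further 50 complement genes were listed, of which 46 have a probe on the array, 65 probes in all, and 62 probes of 45 genes were kept. None of the 62 was at least 1.5-fold changed on all 4 arrays. With limma, on the mean of the clones against 0, 0 were called higher and 0 lower, and 7 had an unadjusted p under 0.05, against 5204 of all 39152 probes kept. Over all probes kept, 0.138% were called higher and 0.7% lower by this test, in which the ctrl clone contributes no spread of its own. The mean log2 ratios ran from -0.81 to 0.50 with a median of -0.00. For a test of sh-G1 against sh-G2, the 4 arrays were fitted in limma with a term for dye. This term takes up the dye difference common to both clones. The residual spread is then only how far the dye-swap differences of the clones disagree, and it may be technical. In this test 0 of the 62 were called and 1 had an unadjusted p under 0.05. Of all probes kept, 0.0843% were called with the sh-G1 value above that of sh-G2 and 0.0383% with it below, and 2916 had an unadjusted p under 0.05.

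By role, the median log2 ratio was 0.01 for 21 probes of recognition proteins and their proteases, -0.00 for 12 probes of components, -0.01 for 15 probes of regulators and -0.00 for 12 probes of receptors. The 2 alternative-route probes differed in value, with CFD, which encodes the protease factor D, at -0.81 and CFP, which encodes properdin, at 0.06. The family of CFHR3 was represented in this list by CFHR4 (A_24_P282547) at 0.01 and CFHR5 (A_23_P23759) at 0.00. Their ctrl signals lay 1.45 and only 0.52 above the lowest detected, so that no larger decrease could be read. In the knockdown channel this CFHR5 probe was well above background on only 1 sh-G2 array. The probe of CFHR2 (A_23_P951) and the second of CFHR5 (A_24_P111406) were not well above background on any array.

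Genes with large values were singled out after the values were seen, and they did not pass the test. For CFD (A_23_P119562) the log2 ratios were -1.02 and -1.18 in sh-G1 and -0.22 and -0.82 in sh-G2 (limma adjusted p = 0.216). C1RL, a C1r-like protease, had a mean of -0.56 with all 4 arrays between -0.46 and -0.77 (limma adjusted p = 0.0778). Of the recognition genes, COLEC12, a scavenger receptor with a collectin domain, had a mean of -0.43 (limma adjusted p = 0.103). Its ctrl signal lay only 1.14 above the lowest detected, which limits what decrease could be seen. The probe A_24_P206679 of MBL2, the mannose-binding lectin, had a mean of 0.50 (limma adjusted p = 0.0821), while the other MBL2 probe, A_23_P35529, was at 0.15. SERPING1, the inhibitor of C1s and C1r, had a mean of -0.33 (limma adjusted p = 0.235), and C1R, the partner protease of C1S, was at -0.13 with arrays on both sides of 0. COLEC11 had means of -0.33 on A_23_P120125 (limma adjusted p = 0.154) and -0.20 on A_24_P388322 (limma adjusted p = 0.28).

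Markers of cell types were read beside these results. Of the epithelial markers, KRT18 and KRT8 were present and lower in both knockdown clones (KRT18 -2.50, -1.96 and -2.32 on its 3 probes). EPCAM was at -0.33, and CDH1, KRT7, KRT19, MUC16, PAX8 and WT1 had means between -0.05 and 0.04. KRT19 and the PAX8 probe A_23_P210001 had ctrl signals 4.75 and 4.70 above the lowest detected. CDH1 and KRT7 lay only 1.25 and 1.06 above it. The arrays of A_23_P210001 went opposite ways, at 0.42 and -0.68 in sh-G1 and 0.66 and -0.43 in sh-G2. Fibroblast-type genes had ratios on both sides of 0, with DCN at -3.17, LUM at -3.31, the COL1A2 probes at 0.01 and -0.33, and the 3 COL3A1 probes between 0.62 and 0.90. Kept probes of endothelial and leukocyte markers had mean log2 ratios between -0.07 and 0.06, and those of hepatocytes, the main source of plasma complement, lay between -0.02 and 0.04 except for ALB, whose clone means were -0.24 for sh-G1 and 0.90 for sh-G2. The part of these differences in the ratio of CFHR3 was not tested.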

How the data were processed

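Total RNA of the knockdown clones sh-G1 and sh-G2 was compared with that of the mock-transfected ctrl clone on 4 Agilent arrays of 2 colours on 1 slide. The authors deposited, the median intensity of every spot in each channel with its local background intensity, made with Agilent Feature Extraction, for which the submitters' processing notes give version 8.5.1.1. The deposited log10 ratio of that software was used as an alternative. In the deposited series matrix 3 columns equal this log10 ratio and the column of sh-G1 replicate 2 equals its error and was not used. Deposited p-values of single spots were not used.

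Spots with an outlier mark (145 to 215 per array) were dropped. The normexp background correction was used (offset 50) and ratios were normalised by loess within arrays with limma 3.58.1 in R 4.3.3, and spots of 1 probe were averaged. Of 40905 probes with values on all arrays, 39152 were kept, those with 1 channel or both well above background on each array. Channel intensities were scaled between arrays with Aquantile. Names came from a RefSeq table of GRCh38.p14 (25398 of 41000 probes named) and array annotations can be old. Arrays of 1 clone were averaged before lmFit and eBayes with trend tested the mean against 0. The clone difference was fitted on 4 arrays with a dye term and is read only for the other complement genes, since the 8 genes were selected on ratios of the same arrays. P-values were adjusted by Benjamini-Hochberg, with a threshold of 0.05. Across probes the dye-swapped arrays correlated with r = 0.32 (sh-G1) and 0.19 (sh-G2). Arrays of different clones with the same dye layout correlated more, with r = 0.61 (replicate 1) and 0.73 (replicate 2). Agreement between the clones on arrays of 1 dye layout can therefore hold a shared dye effect, whose part was not tested.

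The genes, lists and motifs were chosen with earlier results of these data known. The text names every probe of the 8 genes, GALNT3, other complement genes past either test or 1.5-fold on all arrays (none were), and the 5 genes nearest to CFHR3. Beyond this rule it names cell-type markers and further complement genes, some of them singled out after their values were seen. Some other members of the CFHR3 family are not reported here. The limma fits were run on simulated ratios with known changes. For the test of the mean, the simulated dye-swapped arrays of a clone were identical, unlike the real ones. That run therefore does not show how dye differences affect the test. Alternatives were no background correction, an offset of 0, median centring, the software's ratios, the series matrix, other filters on dim probes, outlier spots kept, each array left out, a 2-fold threshold, the ctrl clone given the knockdown clones' spread, the 4 arrays fitted separately, and no dye term. Replicate numbers were given in the order of deposit. The number of arrays limits the precision. Names and plots used Python 3.11.15, numpy 2.4.6, pandas 2.3.3 and matplotlib 3.10.9.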

Additional observations from a re-analysis of the deposited data

Results flagged for a closer look

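Both kept probes of CD46 had opposite signs in the clones, with every array of sh-G1 below 0 and every array of sh-G2 above 0. The difference of sh-G1 minus sh-G2 in log2 ratio was -0.79 for A_23_P201758 and -0.43 for A_23_P35230. Of all 39152 probes kept, 1799 (4.59%) showed this pattern in either direction, against 2 of the 13 probes of the 8 genes and 0 of the 62 of other complement genes. CD46 was selected on these ratios, so no test of the difference is given, and its probes share RNA and arrays and count as 1 observation of the gene.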

How the results depend on the processing

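The count of probes of the 8 genes at least 1.5-fold higher on all arrays stayed 1, and that of lower probes 0, under every alternative run, a 2-fold threshold included. The mean log2 ratio of CFHR3 lay between 1.92 and 2.11 over them. Of the means of the 13 probes under an alternative, 109 moved by less than the spread between the clones and 46 by more. None of these means was tested or called. The small means of CFI, CFB, C3, the CD55 probe A_23_P374862 and 2 CD59 probes (A_24_P639441, A_24_P784765) changed sign under at least 1 alternative, between -0.17 and 0.07 for CFI. Those of CFB, C3, A_23_P374862 and A_24_P784765 did so only under settings that lacked an array. For the other complement genes, limma called 0 higher and 0 lower as reported, 1 lower with the software's log ratio (C1RL), and 3 lower with the series matrix and its 3 arrays (CFD, C1RL, COLEC12). With the 4 arrays fitted separately and a replicate block in place of 1 mean per clone, 3 were called lower (C1RL, COLEC11, COLEC12) and 1 higher (MBL2). That fit counts dye-swapped arrays as replicates, more than the 2 clones, and called 1251 of all probes, against 54 higher and 274 lower as reported. Leaving out each array in turn, 0 to 1 were called higher and 0 to 3 lower. Without sh-G1 replicate 1 these were MBL2 higher and C1RL lower, without sh-G1 replicate 2 CFD, C1RL and COLEC12 lower, and without sh-G2 replicate 1 these 3 lower with MBL2 higher. The adjusted p of C1RL under the settings that called it ran from 0.00974 to 0.0466. When the ctrl clone was assigned the spread of the knockdown clones, limma called 0 of all probes (smallest adjusted p 0.119, 1862 with an unadjusted p under 0.05), 4 of the other complement probes having an unadjusted p under 0.05. In the test between the clones, 48 of all probes were called with the dye term and 5 with no replicate block (no dye term). Leaving out an array or using 3 arrays leaves that test no residual degrees of freedom, so it was not run. In the test of the mean, these settings leave 1 clone with 1 dye layout. The dye effect then does not cancel in the mean of that clone, which limits what the calls under them mean. The cause of these changes was not tested. Low signals limit decreases that could be seen for CFI, CFB, C3 and COLEC12.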
